A study of Mus musculus with 2 samples.

Results

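Of 19128 cell barcodes that passed the filters in a single-cell RNA-seq series of mouse hepatic stellate cell isolates, 117 were rich in hepatocyte transcripts. They were chosen by their own counts: barcodes with at most 30% of UMIs (unique molecular identifiers, each standing for 1 captured RNA molecule) from mitochondrial genes and at least 500 detected genes entered, and members had a summed level of Alb, Apoa1, Apoa2, Ttr and Fabp1 of at least 50 per 10000 UMIs. Levels of these 5 genes are therefore a description of the choice and not a finding. Members were divided by the summed level of the stellate genes Lrat, Ecm1, Hgf and Reln: 104 stood under 15 per 10000 UMIs and 13 at 15 or over.

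The series holds 2 libraries, 1 for each genotype, made with the 10x Genomics 3′ chemistry from density-gradient (Nycodenz) isolates of perfused, pronase- and collagenase-digested livers. The control, p16-LRTD, carries p16-CreERT2 together with a R26-CAG-LSL-RSR-tdTomato-2A-DTR reporter, which also encodes the diphtheria toxin receptor and sits behind 2 stop cassettes, 1 removed by Cre and 1 by Dre. The p16-Alb-LRTD mice also carry Alb-DreERT2, so that by design tdTomato and the receptor are switched on where both the p16 (Cdkn2a) and the albumin promoter have driven their recombinases, and toxin then kills those cells. Male C57BL/6 mice of both genotypes, the controls included, received CCl4 for 4 weeks, tamoxifen and diphtheria toxin. The p16-Alb-LRTD mice were heterozygous for the alleles, and the zygosity of the p16-LRTD controls was not given in the sources used here. How many mice went into each library was not given in the sources used here. With 1 library per genotype no difference between genotypes had a replicate check or a test, genotype and library cannot be told apart, and every interval below covers counting error only.

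Hepatocytes are the large, often polyploid parenchymal cells of the liver. They secrete most plasma proteins, make urea and bile, and clear drugs and toxins. Their work is divided along the lobule: cells near the portal vein (zone 1) run gluconeogenesis, amino acid breakdown and the urea cycle, mid-lobular cells (zone 2) express hepcidin, and cells around the central vein (zone 3) make glutamine and carry the cytochrome P450 enzymes that turn CCl4 into its toxic radical. Stellate cells, with their retinoid droplets, float on the gradient used here, while hepatocytes are denser, so hepatocytes are a residual population in such an isolate.

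The p16-LRTD library held 11149 barcodes with 193746596 UMIs, of which 10644 passed the filters, and the p16-Alb-LRTD library held 8806 with 162219167 UMIs, of which 8484 passed. Members numbered 64 in p16-LRTD (0.601%, 95% Clopper-Pearson interval 0.463 to 0.767) and 53 in p16-Alb-LRTD (0.625%, 0.468 to 0.816), and these intervals overlap. The stellate level was under 15 in 60 and 44 of them and at 15 or over in 4 and 9. The 5-gene level was under 1 per 10000 in 88.5% of p16-LRTD barcodes and 91.8% of p16-Alb-LRTD barcodes, so members were a sparse tail, although 54 and 38 barcodes lay between 10 and 50. Just inside the threshold, the lowest p16-LRTD member had 155 of 29801 UMIs from the 5 genes (52.0 per 10000) and the lowest p16-Alb-LRTD member 401 of 79573 (50.4). Just outside it, the highest had 112 of 23468 (47.7) and 6 of 1270 (47.2). Between 40 and 60 per 10000 stood 5 p16-LRTD barcodes, 2 of them members, and 7 p16-Alb-LRTD barcodes, 4 of them members.

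**Figure D1:**
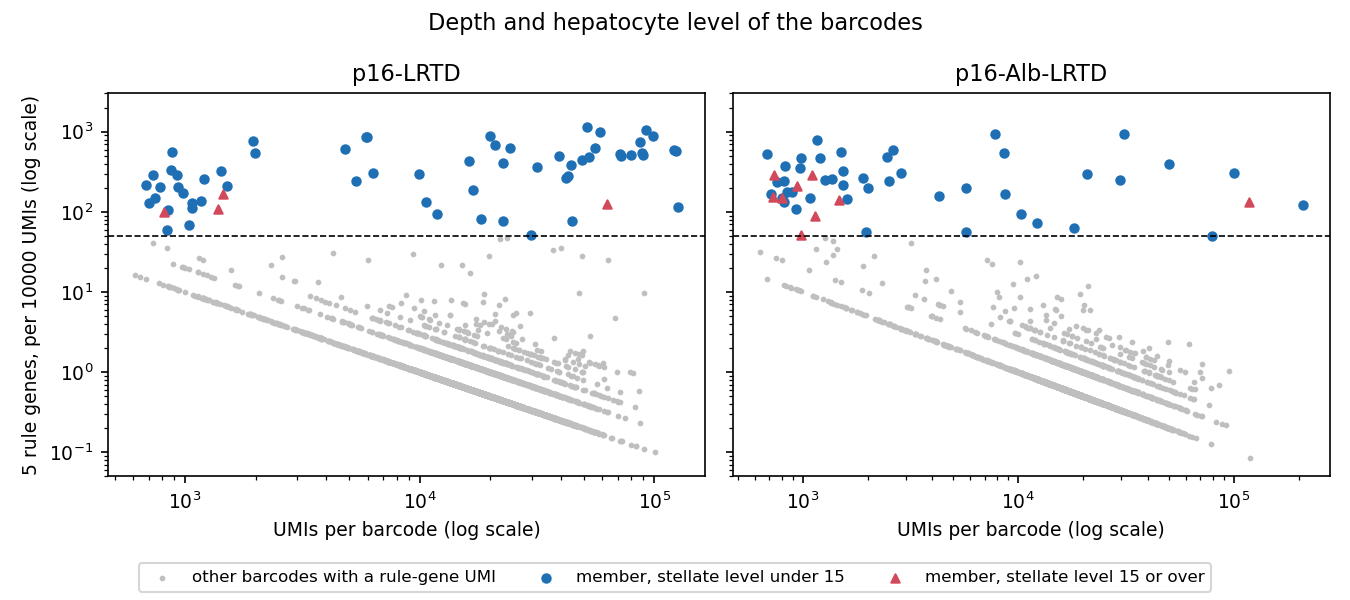
Each point is a barcode with at least 1 UMI of the 5 hepatocyte genes, in the p16-LRTD library on the left and the p16-Alb-LRTD library on the right. The horizontal axis gives UMIs per barcode and the vertical axis the level of the 5 genes per 10000 UMIs, both on log scales, and the dashed line is the threshold of 50. Members (blue circles, stellate level under 15; red triangles, 15 or over) gather at the 2 ends of the depth range, and grey points are the other barcodes, whose diagonal bands are counts of 1, 2, 3 and more UMIs.

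Members fell at both ends of the depth range. Of the barcodes under 1000 UMIs, 13 of 109 (11.9%) in p16-LRTD and 17 of 90 (18.9%) in p16-Alb-LRTD were members. Between 10000 and 20000 UMIs, where stellate cells are most numerous, only 5 of 5329 (0.0938%) and 3 of 4354 (0.0689%) were. At 50000 UMIs and over the share was 9.20% (16 of 174) and 2.94% (4 of 136). A split at 5000 UMIs, placed after the values were seen, gave 39 deep and 25 shallow members in p16-LRTD and 16 deep and 37 shallow in p16-Alb-LRTD. Deep members had a median of 42949 UMIs (5371 to 126156) in p16-LRTD and 19481.5 (5697 to 208866) in p16-Alb-LRTD, shallow members 979 and 1100. Deep members carried 98.4% and 93.4% of all member UMIs. In p16-Alb-LRTD the 5 deepest alone carried 72.6%, against 29.5% in p16-LRTD, so sums over members rest on few barcodes there. The study's own filters for these libraries (mitochondrial share at most 5%, 2000 to 7000 genes, at most 50000 UMIs) would keep 6 of the 64 and 5 of the 53.

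The 2 libraries shared 95 barcodes, 41 of which passed the filters in both, and 10 were members in both. A barcode of at least 1 library's members was found in the other library in 19 cases. In 10 of these a deep barcode of one library stood against a shallow one of the other, with 504 to 1386 UMIs against 79573 to 208866, so that the smaller held 0.532% to 0.770% of the larger's UMIs. Their count profiles were compared by a chi-square per gene, which is near 1 where 2 profiles differ by sampling noise alone: its median was 0.905 (0.674 to 4.02), and 8 of 10 pairs were under 2. Only 7 to 28 genes had enough counts, and barcodes with other sequences came as close. Each shallow barcode was also compared with the other members of at least 50000 UMIs in its partner's library. Of the 10 shallow barcodes, 6 were nearer to their own partner than to any of these. In the other 9 cases both were shallow (684 to 1141 UMIs) and the chi-square per gene was 0.765 to 1.64 over 10 to 38 genes, with 8 of 9 nearest to their own partner. Of the shallow members, 10 of 25 in p16-LRTD and 9 of 37 in p16-Alb-LRTD had their barcode in the other library. Where the RNA of the shared barcodes came from was not tested, so which genotype these shallow members belong to, and with it part of the counts of 64 and 53, is uncertain. Among them p16-LRTD members 46 (1386 UMIs) and 61 (744 UMIs) shared barcodes with p16-Alb-LRTD members 1 and 2, the deepest of that library (members are numbered within each library from the most UMIs down).

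Within p16-LRTD, 7 deep members had nearly the same count profile. They were members 2, 6, 7, 9, 10, 11 and 15, with 52824 to 124077 UMIs each. Over their 21 pairs the chi-square per gene was 1.04 to 1.83 (median 1.31, 1642 to 2845 genes a pair), and 20 pairs were under 1.6. The lowest value among the other pairs of deep members was 2.11 in p16-LRTD (median 14.3) and 6.21 in p16-Alb-LRTD (median 19.8). Among the other barcodes of at least 50000 UMIs no pair was under 1.6, of 12403 pairs in p16-LRTD and 8646 in p16-Alb-LRTD, but the lowest values there, 1.65 and 1.81, lay within the range of the 7. The 7 held 578799 UMIs, 31.5% of all UMIs of the p16-LRTD members under 15, and mitochondrial genes gave only 0.0779% of them. Their 16-base cell barcodes, shown because they name the droplets these profiles were assigned to, differed from each other at 9 to 15 positions:
member 2: atcacgagtaccgtcg
member 6: aaacgctcactgcgac
member 7: ggcagtcgtcctcagg
member 9: acaaagaagactgggt
member 10: aacgggaaggttcact
member 11: caatgaccaaggtcag
member 15: gggacctcacgtacta
Whether the 7 stand for separate cells was not tested.

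**Figure D2:**
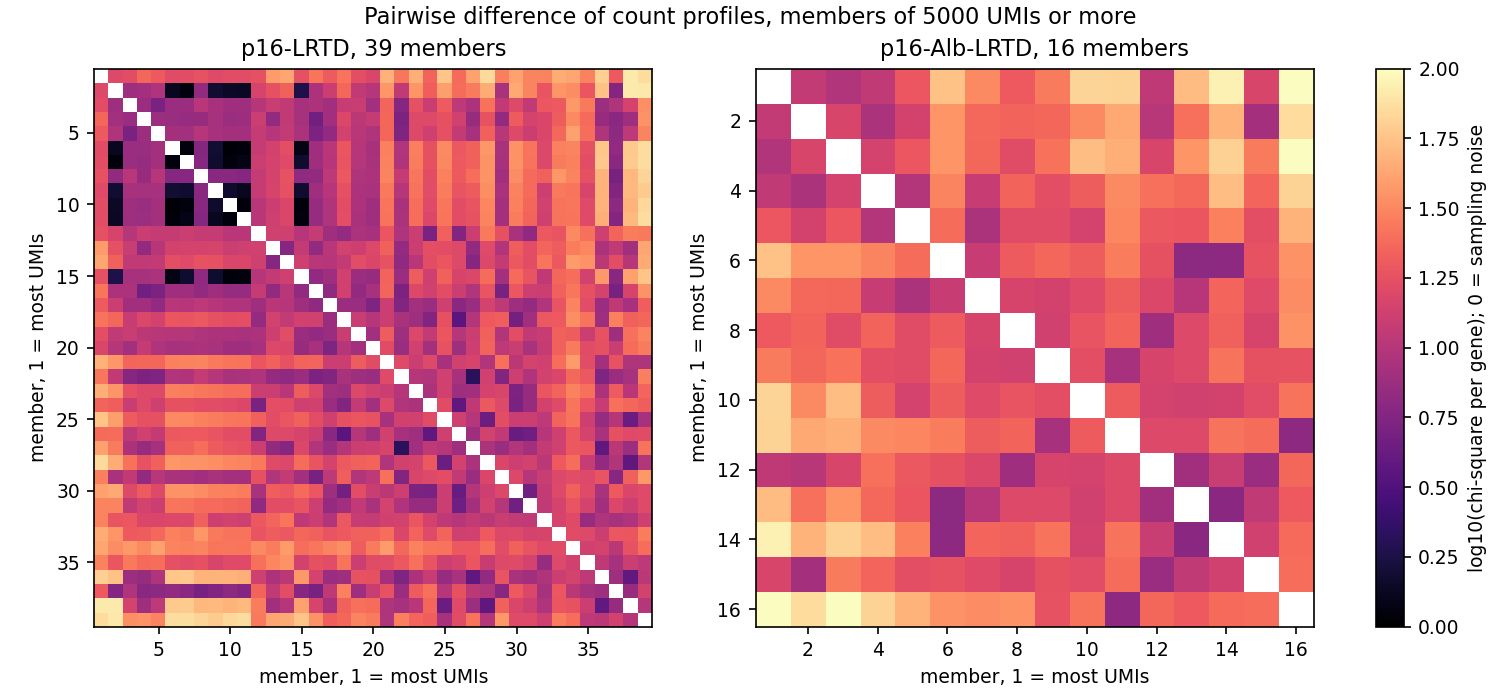
Each cell of the grids is a pair of deep members of 1 library (39 members of p16-LRTD on the left, 16 of p16-Alb-LRTD on the right), ordered from the most UMIs along both axes. The colour is the log10 of the chi-square per gene between their counts, where 0 is sampling noise. The dark cells on the left are the 21 pairs among members 2, 6, 7, 9, 10, 11 and 15 (1.04 to 1.83 before the log); no pair on the right is as low.

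The hepatocyte label held for the pooled UMIs of members, nearly all from deep ones. For single barcodes, apolipoprotein genes outside the rule had UMIs in all 64 and 53 members and protease inhibitors in 63 and 46, the 1 and 7 without any being shallow. Members under 15 were set against the barcodes of either library that were rich in stellate transcripts, as a description, since the rule separates these classes by 9 of the genes. Of 17766 genes with enough counts, 24.5% were at least 2-fold higher in the members. Of 122 genes on 12 hepatocyte lists that hold none of the 5 rule genes, 109 passed the count filter, and 107 of these were at least 2-fold higher, with a median log2 ratio of 9.31. Nr1h4 was the 1 gene of these lists that was at least 2-fold lower; it encodes the bile acid receptor FXR and was also counted in stellate-rich barcodes. On the lists of the zones 13 of 14 zone 3 genes and 11 of 12 zone 1 genes were at least 2-fold higher, and the zone 1 gene Ctsc, a lysosomal protease, was at least 2-fold lower. The lists of apolipoproteins (median log2 10.60, 10 of 10 genes), coagulation factors (9.73, 9 of 9), protease inhibitors (9.38, 14 of 14) and amino acid and sugar metabolism (9.0, 14 of 14) were higher throughout.

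The 10 genes with the highest ratio over stellate-rich barcodes among abundant ones were Fabp2, Lect2, Cyp1a2, Gulo, A2ml1, Apoa4, Mup20, Apom, Ly6d and Serpina3m. Lect2, a secreted hepatokine, stood at 14.8 per 10000 UMIs in members against 0.00248 in stellate-rich barcodes and was found in 59 of 104 members. Gulo, the last enzyme of vitamin C synthesis in rodents, stood at 6.06 against 0.00166. Apom, a carrier of sphingosine 1-phosphate on lipoproteins, stood at 5.19 against 0.00186. Ly6d encodes a surface protein better known from lymphoid progenitors and epithelia. Its level was 18.8 in members, where 70 of 104 barcodes held it, against 0.00700 in stellate-rich barcodes.

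Against the label, 4 deep members carried markers of cholangiocytes, the cells that line bile ducts. They were singled out after their values were seen, by at least 5 UMIs of Epcam, an epithelial adhesion protein of cholangiocytes that adult hepatocytes lack. In p16-LRTD, member 33 (11889 UMIs) held 13 Epcam, 25 Pkhd1, 6 Krt19, 17 Sox9 and 240 Spp1 UMIs, and none of Apoa1, Apoa2 or Fabp1. In p16-Alb-LRTD, member 9 (18139 UMIs) held 33 Epcam, 10 Pkhd1, 5 Krt19 and 524 Spp1 UMIs. Member 11 (10262 UMIs) held 15, 25, 0 and 207 of the same genes and member 16 (5697 UMIs) 5, 13, 0 and 205. Pkhd1 encodes fibrocystin of the cholangiocyte cilium, Krt19 a duct keratin and Spp1 osteopontin. Their 5-gene levels, 56.2 to 94.2 per 10000, were low among deep members, whose medians were 484 and 182. Epcam had no UMI in any of the other deep members, but the other markers were not all confined to these 4. Over all deep members, Spp1 had UMIs in 21 of 39 and 6 of 16, Sox9 in 15 and 8, Pkhd1 in 8 and 5 and Krt19 in 2 and 1. At least 5 Pkhd1 UMIs were found in 1 and 3 deep members, and at least 5 Spp1 UMIs in 19 and 4.

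Markers of other liver cells were sparse in most members. Summed over 10 Kupffer cell markers, the median level of deep members was 0.203 per 10000 UMIs in p16-LRTD (0 to 24.6) and 0 in p16-Alb-LRTD (0 to 1.28), with 13 of 39 and 9 of 16 members at 0. The 7 near-identical members were the exception: Kupffer cell markers summed to 11.2 per 10000 there against 0.208 in the other deep p16-LRTD members. C1qa, a complement subunit made by macrophages, stood at 2.49 and Clec4f, a lectin restricted to Kupffer cells, at 1.19, while Kupffer-rich barcodes of the same library had 33.2 and 21.5. The summed endothelial markers stood at 3.63 in the 7 and 0.432 in the others. These 7 also held more haptoglobin RNA (Hp, 52.6 against 15.7 per 10000) and Apoa1 (145 against 70.5), and less Fabp1 (31.8 against 126), which carries fatty acids in the cytosol, and Cyp2c29 (0.0864 against 6.07). Apoa1 and Fabp1 are genes of the rule, in which a high level of one can make up for a low level of the other. The stellate markers outside the rule summed to 18.8 in all p16-LRTD members and 28.7 in p16-Alb-LRTD members, against 310 and 335 in stellate-rich barcodes. Leukocyte markers reached at most 0.203 and 0.0479 in any deep member.

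**Figure D3:**
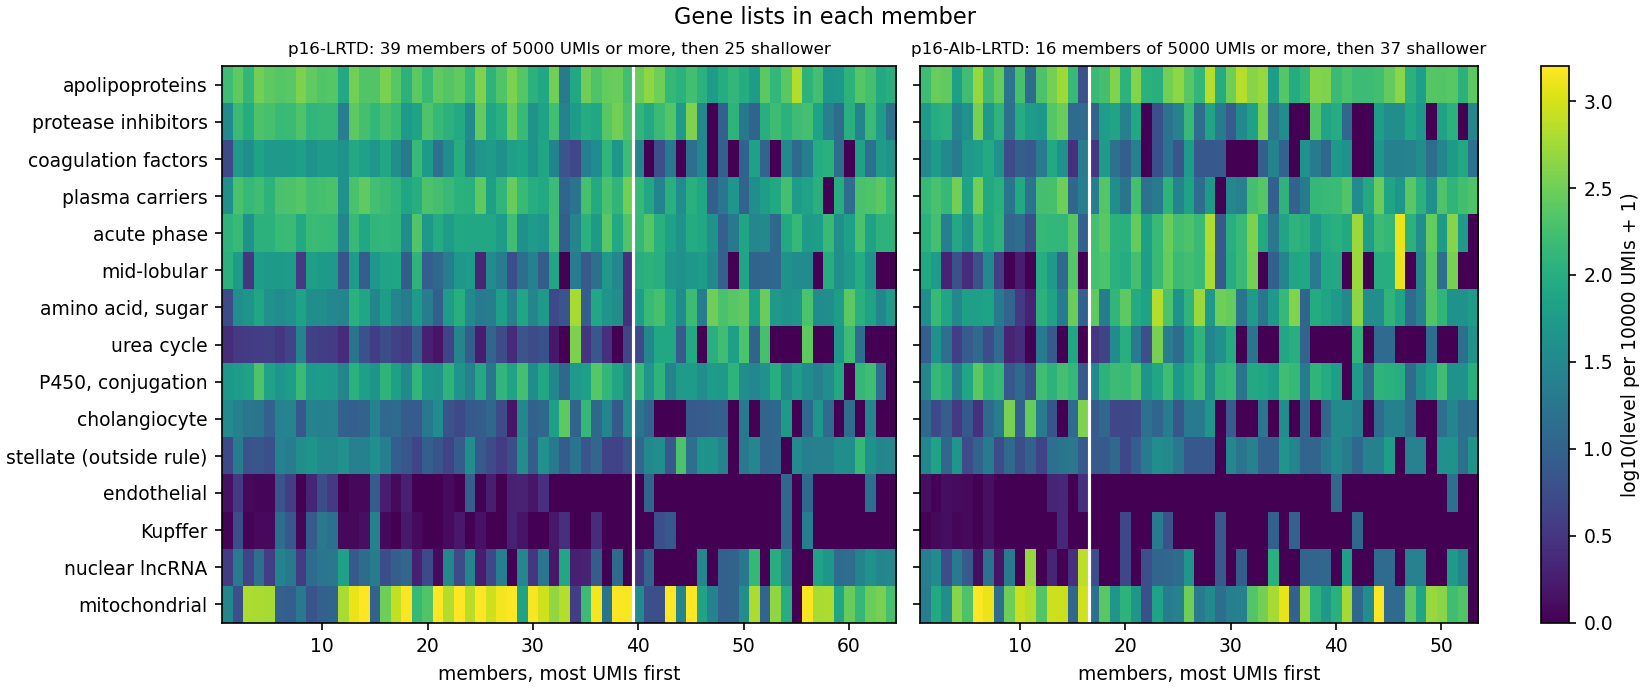
Each column is a member, ordered from the most UMIs, with p16-LRTD on the left (64) and p16-Alb-LRTD on the right (53), and the white line separates deep from shallow members. Each band of the vertical axis is a gene list and the colour is log10 of its level per 10000 UMIs plus 1. Secreted protein lists are bright in nearly all columns, cholangiocyte markers are bright in 4 deep columns, and the mitochondrial list is dark in the 7 near-identical columns and varies widely in the rest.

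RNA quality varied among members. Mitochondrial transcripts took a median of 6.34% of UMIs in deep p16-LRTD members and 3.67% in deep p16-Alb-LRTD members. They ranged from under 1% in 12 of 39 and 5 of 16 deep members to over 5% in 22 and 7. Among shallow members 13 of 25 and 20 of 37 were under 1%. Malat1, a long noncoding RNA retained in the nucleus, was low in the summed UMIs of members: 11.2 per 10000 in deep p16-LRTD members and 29.5 in deep p16-Alb-LRTD members, against 175 and 193 in stellate-rich barcodes. Single deep members ranged from 0 to 82.4 in p16-LRTD (median 4.42) and from 0 to 764 in p16-Alb-LRTD (median 5.20), so at least 1 member lay above the stellate-rich level.

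Single members differed widely in which hepatocyte genes they carried, although for Alb and Fabp1, as genes of the rule, the ranges describe the choice. Deep p16-LRTD members ranged from 8.76 to 419 per 10000 for Alb (median 186) and from 0 to 548 for Fabp1 (median 43.2). Deep p16-Alb-LRTD members ranged from 3.50 to 291 for Alb (median 38.6) and from 0 to 252 for Fabp1 (median 14.7). The Fabp1 maximum was member 5 of p16-LRTD, with 5072 Fabp1 UMIs of 92555. Member 1 of p16-LRTD combined 1365 UMIs of Hamp, which encodes the iron hormone hepcidin, with 349 of Cyp2a4 and 247 of Cyp2a5, P450 enzymes for steroids and coumarin. Member 1 of p16-Alb-LRTD held 1786 Hamp and 928 Hpx UMIs, Hpx being the plasma scavenger of haem, and 1352 of the immediate-early gene Jun. Mup20 encodes a urinary pheromone protein of males, and member 3 of p16-Alb-LRTD held 668 of the 682 Mup20 UMIs of that library's deep members. The ranges of the libraries overlapped for each of these genes.

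**Figure D4:**
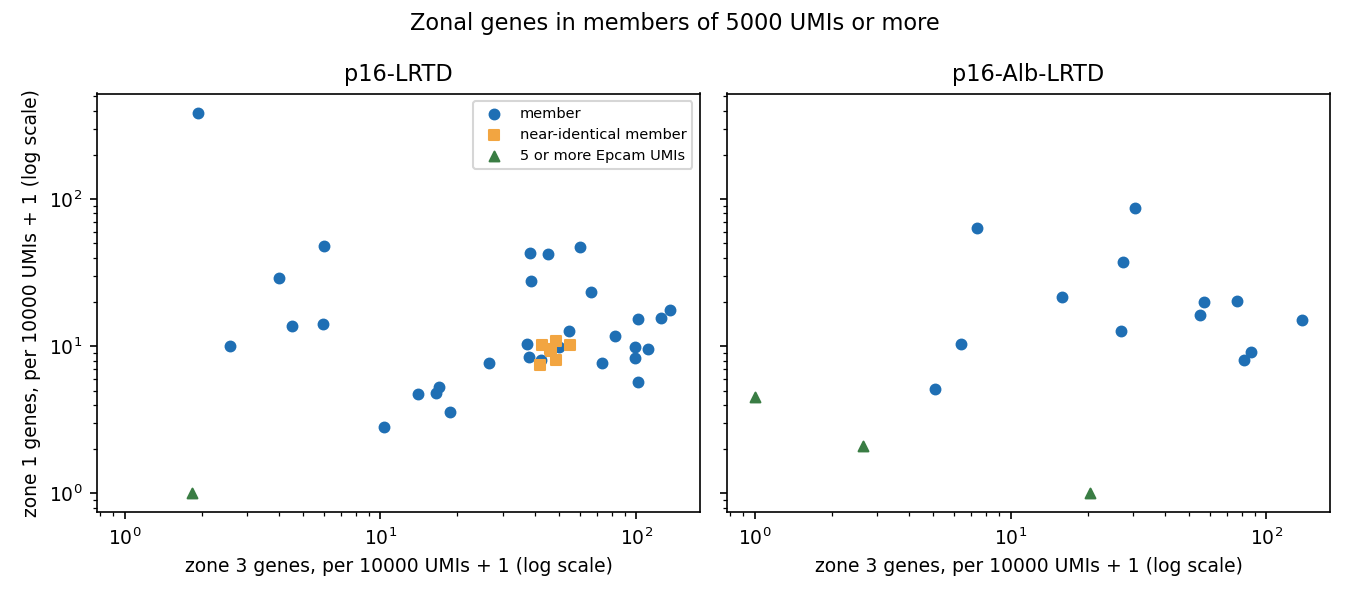
Each point is a deep member, with the summed level of the zone 3 genes on the horizontal axis and of the zone 1 genes on the vertical axis (both per 10000 UMIs plus 1, log scales; p16-LRTD left, p16-Alb-LRTD right). In p16-LRTD 32 of 39 members have the higher value on the zone 3 axis, the 7 near-identical members (orange squares) coincide, and 1 member stands alone at 386 for zone 1. Green triangles are the 4 members with at least 5 Epcam UMIs.

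Zone 3 genes exceeded zone 1 genes in most deep members. Summed over the fixed lists, the zone 3 level was the higher in 32 of 39 deep p16-LRTD members and the zone 1 level in 7. In p16-Alb-LRTD the numbers were 9 and 6, with member 10 equal. The 7 near-identical members all belong to the 32. The lists differ in length and abundance, so the counts do not say where in the lobule a cell sat. Cyp2e1, the P450 enzyme that activates CCl4, was found in 31 of 39 and 11 of 16 deep members, with medians of 10.6 and 1.68 per 10000. Glul, glutamine synthetase of the innermost pericentral cells, was found in 31 and 9, and was high in few. Member 19 of p16-LRTD stood highest, at 29.2 per 10000 with Cyp2e1 at 41.9 and Hamp at 114. Of the 3 next highest, all in p16-Alb-LRTD, member 11 (18.5) had no Cyp2e1 and is a member with cholangiocyte markers. Members 7 (15.5) and 5 (15.2) held Cyp2e1 at 16.5 and 21.8.

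The zone 1 genes Sds and Cyp2f2 were found in few members, while Pck1 had UMIs in 17 of 39 and 7 of 16 deep members. The zone 1 list as a whole was above 0 in 38 of 39 and 15 of 16. Sds, serine dehydratase of the periportal rim, had UMIs in 1 of 39 and 2 of 16 deep members and in 5 of 25 (15 UMIs) and 4 of 37 (9 UMIs) of the far less deeply read shallow members, and Cyp2f2, a periportal P450, in 1 and 1 deep members. Member 34 of p16-LRTD (10660 UMIs) held all 27 Sds UMIs of the deep p16-LRTD members, with 20 Hal, 272 Bhmt and 128 Gnmt UMIs, and its zone 1 level was 386 per 10000 against 0.938 for zone 3. Hal degrades histidine, and Bhmt and Gnmt belong to methionine metabolism. Member 2 of p16-Alb-LRTD held 27 of the 28 Sds UMIs and all 17 Cyp2f2 UMIs of its library's deep members, with 39 Hal and 196 Pck1 UMIs, Pck1 being the gatekeeper of gluconeogenesis. Mid-lobular Hamp was found in 37 of 39 deep p16-LRTD members and 10 of 16 deep p16-Alb-LRTD members, with medians of 30.4 and 3.74. Ass1, a urea cycle enzyme, stood at 35.8 and 27.6 per 10000 in the summed UMIs of shallow members of p16-LRTD and p16-Alb-LRTD, against 2.81 and 6.47 in deep ones. Single members overlapped: the urea cycle list ranged from 0 to 365 in deep and 0 to 253 in shallow p16-LRTD members.

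Of the 13 members with a stellate level of 15 or over, 2 were deep. Member 12 of p16-LRTD (62791 UMIs) held 118 UMIs of the 4 stellate genes (18.8 per 10000) and 786 of the 5 hepatocyte genes (125), with 102 Col1a1, 423 Malat1 and 61 Cyp2e1 UMIs. Member 2 of p16-Alb-LRTD (117847 UMIs) held 228 stellate UMIs (19.3) and 1568 of the hepatocyte genes (133). It also held 173 Saa1 and 159 Saa2 UMIs, which encode acute phase proteins, and 241 Gnmt UMIs. No doublet caller was run, and whether these barcodes hold RNA of more than 1 cell was not tested. The other 11 reached the level with 2 to 4 stellate UMIs each. Between the libraries, genes named for this class thus compare these 2 barcodes. Gnmt had 256 UMIs in p16-Alb-LRTD, of which 94.1% were in 1 barcode, and none of 66434 UMIs in p16-LRTD. Saa1 (174 UMIs), Ftcd (60), Thrsp (35) and Gsta1 (35) also had none in p16-LRTD, and Rida (28.6 against 0.602 per 10000) and Wfdc21 (8.99 against 0.151) were higher. Col1a1 was lower (0.318 against 15.4 per 10000), with all its p16-LRTD UMIs in member 12, and so were Cyp2e1 (0.239 against 9.33), Slco1b2 (0.557 against 14.6), Ehhadh (0.716 against 16.1), Ly6d (0.954 against 19), Slc4a4 (0.159 against 4.37), Derl3 (0.0795 against 3.91) and Nucb2 (0.318 against 6.32). For each of these genes, 88.6% to 100% of the UMIs of the library with the higher level came from 1 barcode.

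To describe how the genotypes differed, UMIs were summed over the members under 15 of each library: 1840154 in p16-LRTD and 640437 in p16-Alb-LRTD. Of 8959 genes with at least 20 UMIs, 26.5% were at least 2-fold higher in p16-Alb-LRTD and 5.3% at least 2-fold lower, and the median log2 ratio was 0.38. Without the 7 near-identical members these were 29.6% and 3.56% of 8111 genes, with a median of 0.48. With edgeR's TMM factors in place of total UMIs the shares became 15.5% higher and 13.4% lower, with a median of -0.08. With UMIs of apolipoprotein, protease inhibitor and coagulation genes as the total (the secreted-gene total) they became 43.7% and 2.67%, with a median of 0.85. A log2 ratio between -0.47 and 0.45 therefore changed its sign under one of these scalings and, of the genes named below, this holds for Apoc3, Hamp, Hnf4a and, by a small margin, Gstm1. Single genes and lists are to be read against a background of 6021 of the 8959 genes above 0. Deep members gave nearly all of these UMIs, so the sums describe them more than the shallow members. Members under 15 had a median of 16575.5 UMIs in p16-LRTD and 1935.5 in p16-Alb-LRTD. Numbers of members with a UMI of a gene therefore differ between the libraries through depth too. The 5 rule genes together took 523 of 10000 UMIs in all p16-LRTD members and 222 in all p16-Alb-LRTD members.

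Genes for secreted plasma proteins were mostly lower per 10000 UMIs in p16-Alb-LRTD members. Of 14 protease inhibitors 12 were lower (median log2 -0.58), of 10 apolipoproteins and lipid carriers 8 (-0.52), of 9 coagulation factors 8 (-0.39) and of 7 carriers of iron, haem and vitamins 6 (-0.14), with 5 genes in all past 2-fold. With TMM factors these medians were -1.03, -0.97, -0.85 and -0.59; with the secreted-gene total they were -0.11, -0.04, 0.08 and 0.33, the first 3 lists being that total. Without the 7 near-identical members they were -0.58, -0.28, -0.086 and -0.14. In shallow members alone the medians of the apolipoproteins and of the carriers turned to 0.61 and 0.17, each over the 5 genes that passed the count filter. Alb, the main plasma protein and the locus that drives Dre in p16-Alb-LRTD mice (chromosome 5, 90460897 to 90476602, plus strand, GRCm38), stood at 210 against 56.9, a log2 ratio of -1.88 (-1.93 to -1.84). As a gene of the rule it is subject to the choice of members. Ahsg, fetuin A, stood at 30.9 against 11.3 (-1.45, or -1.58 without the 7 and -0.43 in shallow members), and Serpina3k, a kallikrein inhibitor, at 13.2 against 4.86 (-1.44). Hpx went the other way, at 25.4 against 50.8 (1.0, 0.93 to 1.06), or 0.49 without the barcode that held 38.2% of its p16-Alb-LRTD UMIs. Its deep members ranged from 0 to 117 in p16-LRTD and from 0 to 156 in p16-Alb-LRTD, so the libraries overlapped.

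Genes of the Apoa1 cluster on chromosome 9 had ratios of both signs. Apoa1, the main protein of high-density lipoprotein (46228580 to 46230466), stood at 95.5 against 21.3, a log2 ratio of -2.17, or -1.78 without the 7 near-identical members. It is a gene of the rule, so its level, like that of Alb, is subject to the choice of members. Its neighbour Apoc3, an inhibitor of triglyceride clearance (46232933 to 46235636), stood at 27.7 against 35.4 (0.36, 0.28 to 0.43). Apoa4 (46240696 to 46243459) stood at 6.34 against 3.59 (-0.82) and Apoa5 (46268633 to 46271919) at 2.81 against 2.0 (-0.49). Among deep members Apoa1 was found in 38 of 39 p16-LRTD barcodes and 11 of 16 p16-Alb-LRTD barcodes.

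Acute phase genes split evenly, with 6 of 12 higher and 6 lower (median log2 -0.06, or 0.41 with the secreted-gene total). Lcn2, a siderophore-binding protein that injured hepatocytes secrete, stood at 11.4 against 1.72 (-2.73, -3.02 to -2.46) and was in 42 of 60 and 14 of 44 members. Hamp stood at 44.7 against 45.9 (0.04, -0.02 to 0.10) over all members under 15, but at 44.5 against 36.6 (-0.28) in the deep ones and at 55.7 against 175 (1.65) in the shallow ones. A single barcode held 60.8% of its p16-Alb-LRTD UMIs, and without it the log2 ratio was -0.74. Hp stood at 27.7 against 18.4 (-0.59), but the log2 ratio was 0.17 without the 7 near-identical members and 0.18 in shallow members. Of 10 major urinary protein genes 2 passed the count filter. Mup3 was lower (1.08 against 0.0781, -3.78) and Mup20 higher (3.34 against 10.6, 1.67), the latter with 97.9% of its deep p16-Alb-LRTD UMIs in 1 barcode, without which its log2 ratio was -3.79. Many genes of this family are near-identical copies, so reads of such a gene can be lost or given to another.

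Metabolic genes had list medians near that of all genes or below it. Of 5 urea cycle genes 4 were higher (median log2 0.39), and of 14 genes of amino acid and sugar metabolism 9 (0.20); with TMM factors the medians were -0.06 and -0.26. Without the 7 near-identical members 2 of 5 and 6 of 14 were higher, with medians of -0.13 and -0.11. In shallow members the urea cycle median was -0.40 over 3 genes. Pck1 stood at 0.456 against 2.06 (2.17, 1.77 to 2.59, or 1.63 without the 7). Gnmt stood at 1.46 against 3.61 (1.31) and G6pc, glucose 6-phosphatase, at 0.777 against 1.67 (1.10), both under 2-fold without the 7 (0.79 and 0.66). Of 16 cytochrome P450 and conjugating enzymes 7 were higher and 9 lower (-0.19), with 5 and 3 past 2-fold, and the median was 0.28 with the secreted-gene total and 0.40 in shallow members, where 6 of 6 were higher. Zone 3 genes differed in both directions, with 5 of 13 higher and 8 lower (median -0.63, or -0.16 with the secreted-gene total). Cyp2e1 stood at 13.5 against 4.67 (-1.53) and Cyp1a2, which oxidises caffeine, at 7.02 against 2.42 (-1.54). Against these, Cyp2c29 stood at 4.38 against 13.3 (1.6, or 1.06 without the 7 and 0.67 without the barcode that held 55.8% of its p16-Alb-LRTD UMIs) and Glul at 2.14 against 4.98 (1.22, or 0.99 without the 7). The median of the zone 3 list was -0.36 without the 7 and turned to 0.013 without the 5 deepest members of each library and to 0.075 in shallow members. Zone 1 genes had 5 of 11 higher (-0.21, or 0.26 with the secreted-gene total). Of 11 hepatocyte transcription factors 9 were higher (0.74, or 0.29 with TMM factors, but -0.42 without the 5 deepest members of each library), Foxa2 by 1.52 and Nr1h4 by 2.04. Hnf4a, a main regulator of hepatocyte identity, stood at 1.10 against 0.843 (-0.38).

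Of 10 stress genes 5 were higher (median -0.086), and 6 of 9 without the 7 near-identical members (median 0.57); in shallow members 3 of 3 were higher (median 3.28). Ddit3, the endoplasmic reticulum stress factor CHOP, stood at 0.130 per 10000 in p16-LRTD and 7.03 in p16-Alb-LRTD (5.75, 5.16 to 6.41), in 12 of 60 and 17 of 44 members. Atf3, induced by the same stress response, stood at 0.592 against 11 (4.22). Fgf21, a secreted stress hormone, stood at 0.109 against 0.734 (2.76), in 5 p16-Alb-LRTD members, but 80.9% of its p16-Alb-LRTD UMIs were in 1 barcode, without which the log2 ratio was 0.62. Atf3 likewise stood at 3.56 without the barcode that held 46.6% of its p16-Alb-LRTD UMIs. The metallothioneins Mt1 (9.72 against 5.71, -0.77) and Mt2 (2.17 against 1.33, -0.71) were lower, but in shallow members alone their log2 ratios were 0.47 and 0.34. Of the genes the study linked to p16-high hepatocytes as higher there, 4 of 9 were higher and 5 lower. Anxa2, a membrane-binding protein, stood at 4.71 against 1.48 (-1.67, but 0.34 in shallow members), Gpx3, a secreted glutathione peroxidase, at 1.04 against 0.219 (-2.25) and Nqo1, a quinone reductase, at 0.462 against 0.141 (-1.72). Vta1 (0.217 against 0.515, 1.25, but -0.077 in shallow members) and Chmp4c (0.0815 against 0.312, 1.94) were higher. Txnip, an inhibitor of thioredoxin, stood at 1.10 against 11.8 (3.42, or 1.97 without the barcode that held 69.2% of its p16-Alb-LRTD UMIs) and Gstm1, a glutathione transferase, at 17.3 against 12.5 (-0.47, but 0.24 in shallow members).

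The 8 genes with the highest ratio among the abundant ones were Dbp, Nr1d1, Cish, Hist3h2a, Hist1h4h, Ddit3, Klf10 and tdTomato. Dbp and Nr1d1, output genes of the circadian clock, stood at 0.0109 against 4.72 (8.76) and 0.103 against 18.4 (7.48). Times of day of the isolations were not given in the sources used here, and 81.1% and 67.1% of their p16-Alb-LRTD UMIs came from 1 barcode each. For Cish, a feedback inhibitor of cytokine signalling (0.0217 against 2.17), that share was 74.8%, and for Ddit3 34.9%. Without that barcode the log2 ratio was 6.60 for Dbp, 6.12 for Nr1d1, 5.22 for Cish and 5.18 for Ddit3. Hist1h4h and Klf10 then stood at 4.35 and 3.81, against 5.81 and 5.06 with it. The 8 genes with the lowest ratio were S100a6, Nrn1, Lcn2, Fabp2, Apoa1 (a rule gene), Tuba1b, Fabp5 and Cyp2c70. Fabp2 went from -2.24 to -1.46 without the 7 near-identical members. S100a6, the calcium-binding protein calcyclin, stood at 5.87 against 0.281 (-4.38, -5.14 to -3.72), in 34 of 60 and 5 of 44 members, with no p16-LRTD barcode above 19% of its UMIs. Nrn1, a membrane-anchored protein named for its role in neurites, stood at 5.40 against 0.640 (-3.08), with 52.8% of its p16-LRTD UMIs in the 7 near-identical members. The tubulin gene Tuba1b stood at 3.73 against 0.843 (-2.15). The bile acid hydroxylase Cyp2c70 stood at 4.59 against 1.06 (-2.11, but 0.56 in shallow members).

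Markers of other cells differed between the libraries, in part through the 7 near-identical members. Endothelial and Kupffer cell markers that passed the count filter were at least 2-fold lower in p16-Alb-LRTD, 8 of 8 on each list. Without the 7 near-identical p16-LRTD members, all but 1 of them fell under the count filter, the remaining gene being Stab2 (log2 -0.44). The summed Kupffer cell markers then stood at 0.246 against 0.250 per 10000 (log2 0.02, against -3.89 with the 7), and the log2 ratio of the summed endothelial markers went from -2.47 to -0.87. Collagen and activation genes of stellate cells had 4 of 6 higher, with Col1a1 at 0.652 against 1.39 (1.09). Of the p16-Alb-LRTD Col1a1 UMIs 86.5% were in 1 barcode, without which its log2 ratio turned to -1.55. Of 7 cholangiocyte markers that passed the filter 5 were at least 2-fold higher (median 1.89, or 1.61 without the 7), beside the 3 p16-Alb-LRTD and 1 p16-LRTD members with Epcam UMIs. The 2 lower markers, Krt8 and Krt18, had log2 ratios of -1.98 and 1.15 in shallow members. Of 12 stellate markers outside the rule 10 were higher (median 0.37, but -0.71 over 2 genes in shallow members). All 8 mitochondrially encoded genes were lower, mt-Nd1 furthest at 48.9 against 18.4 (-1.41). The median of the 8 was -0.79, and -1.33 without the 7 near-identical members. Meg3, a nuclear long noncoding RNA, stood at 1.15 in p16-LRTD members and had no UMI in p16-Alb-LRTD members, which allows a level of up to 0.0468. The part of these markers in the differences between genotypes was not tested.

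tdTomato, the recombination reporter, stood apart in the p16-Alb-LRTD members. The 64 p16-LRTD members held 17 UMIs (0.0892 per 10000, 95% Poisson interval 0.0519 to 0.143) and the 53 p16-Alb-LRTD members 187 (2.44, 2.10 to 2.82), a 27.4-fold difference (16.6 to 48.0). The p16-LRTD library, which has no Dre, held 585 tdTomato UMIs in its 10644 barcodes that passed the filters, and their source was not tested. In stellate-rich barcodes the levels were 0.0304 and 0.0585, a 1.93-fold difference (1.72 to 2.16). Within p16-Alb-LRTD the members stood 41.8-fold above stellate-rich barcodes (35.4 to 49.0), and within p16-LRTD 2.94-fold (1.70 to 4.75). Of the 17 p16-LRTD UMIs 9 were in the 7 near-identical members, and without these the deep p16-LRTD members stood 2.03-fold above stellate-rich barcodes, with an interval that includes 1 (0.872 to 4.03). The 53 members held 0.472% of the UMIs of the p16-Alb-LRTD library and 16.7% of its 1122 tdTomato UMIs.

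Among deep members, 8 of 39 p16-LRTD barcodes had a tdTomato UMI, none more than 4, and 12 of 16 p16-Alb-LRTD barcodes did, 6 of them at least 5. In p16-LRTD the level was 0 in the lowest and the median member and 0.418 in the highest; in p16-Alb-LRTD it was 0, 1.13 and 5.85. The libraries thus overlapped at 0 and at the 2 lowest positive p16-Alb-LRTD values (0.321 and 0.377), and 10 p16-Alb-LRTD members lay above every p16-LRTD member. Members 1, 3 and 2 of p16-Alb-LRTD held 78, 42 and 29 UMIs, and member 11, which carries cholangiocyte markers, held 6. With each barcode thinned to 5000 UMIs, as a mean over all possible draws, 2.67% of deep p16-LRTD members and 48.9% of deep p16-Alb-LRTD members kept a UMI. The shares in stellate-rich barcodes were then 1.48% and 2.81%, in endothelial-rich barcodes 0.880% and 1.68% and in Kupffer-rich barcodes 0.689% and 2.06%. Shallow members had a UMI in 0 of 25 and 5 of 37 barcodes. Without the 7 near-identical members the fold over deep p16-LRTD members was 40.8 (20.3 to 95.9).

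**Figure D5:**
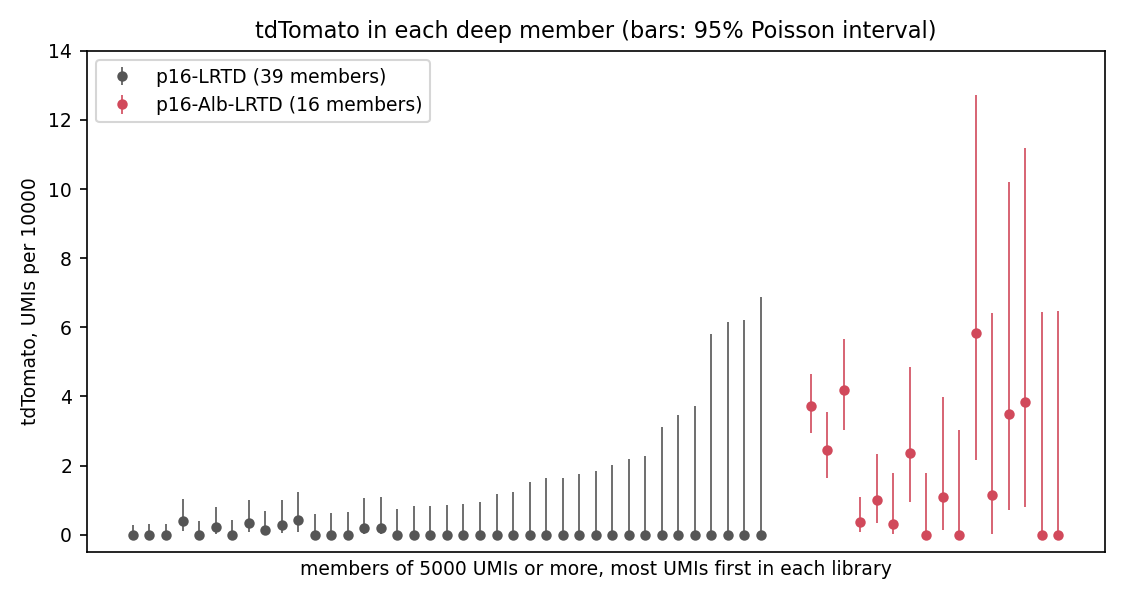
Each point is a deep member (39 of p16-LRTD in grey, 16 of p16-Alb-LRTD in red), ordered from the most UMIs within its library along the horizontal axis. The vertical axis is the tdTomato level per 10000 UMIs, with the 95% Poisson interval as a bar. Grey points lie at 0 to 0.418 and red points at 0 to 5.85, and the bars lengthen to the right in each library as depth falls.

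Cdkn2a, the gene of p16 that drives Cre, had 6 UMIs in the p16-LRTD members, each in a different deep barcode, and none in the p16-Alb-LRTD members, a difference that was not detectable at this depth. Cdkn1a, the p53-induced inhibitor p21, stood at 0.75 against 4.51 per 10000 (2.59, 2.29 to 2.89), in 27 of 60 and 17 of 44 members. Cdkn1c, a further cyclin-dependent kinase inhibitor, stood at 0.663 against 0.0937 (-2.82). Of 8 cytokines of the interleukin 6 family, which include ligands of the receptor LIFR, 1 passed the count filter: Lif, in 4 p16-LRTD and 2 p16-Alb-LRTD members (0.0272 against 0.437), with 75.0% of its p16-Alb-LRTD UMIs in 1 barcode.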

How the data were processed

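Single-cell RNA-seq was analysed for 2 libraries, 1 per genotype. The deposited values are raw UMI counts per gene and barcode, which the authors made with Cell Ranger 7.0.1 on mm10 per the submitters' processing notes (10x Genomics 3′ v3.1 chemistry, cellranger count). No doublet caller was run here. Both matrices list the same 31054 features, of which 30934 matched the GRCm38 annotation used for coordinates (GENCODE vM21).

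Barcodes with at most 30% mitochondrial UMIs and at least 500 genes were kept (505 p16-LRTD and 322 p16-Alb-LRTD barcodes were left out). Levels are UMIs per 10000 of the same barcodes, summed over barcodes before division unless a single barcode is named. Comparison classes had a hepatocyte level under 50 per 10000 and a summed level of at least 15, with the other classes' lists under 15, for the 4 stellate genes of the rule (8626 p16-LRTD and 7044 p16-Alb-LRTD), for Kdr, Stab2, Clec4g and Ptprb (endothelial, 708 and 425) or for Clec4f, Vsig4, Cd5l and C1qa (Kupffer, 574 and 383). Members and gene lists were chosen with earlier results of these data known.

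Ratios between genotypes covered genes with at least 20 UMIs over both libraries, with exact conditional 95% intervals. Levels have exact Poisson and shares Clopper-Pearson intervals. UMIs of 1 barcode are not replicates, so no p-value was computed. Log2 ratios of counts that enter list medians used 0.5 added to each count. A value of 0 was read against a limit of 3 counts. Genes were named by rule: at least 2 per 10000 UMIs in a library, a UMI in at least 20% of its members and the same direction in the mean of per-barcode levels; mitochondrial, ribosomal protein, haemoglobin, sex-linked and predicted genes were left out. Taken were the 8 with the highest and the 8 with the lowest ratio in each class, and the 10 with the highest ratio over stellate-rich barcodes, beside the genes of the lists; some genes the rule takes are not reported here. Count profiles were compared by chi-square per gene over genes with an expected count of at least 5 (3 for barcodes found in both libraries). Near-identical pairs had a value under 1.6. Thinning to 5000 UMIs per barcode without replacement was computed as the exact mean over draws (hypergeometric). The scripts were tested on simulated data.

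Alternatives changed the filters, thresholds, scaling (edgeR 4.0.16 TMM factors, or UMIs of 3 secreted-gene lists as the total), summing and members left out. Python 3.11.15, NumPy 2.4.6, SciPy 1.17.1, pandas 2.3.3, matplotlib 3.10.9 and R 4.3.3 were used.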

Additional observations from a re-analysis of the deposited data

How the results depend on the processing

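No paired analysis was possible because with a single library for either genotype there are no replicates to pair. The alternatives without the near-identical members or with these counted as 1, without shallow members with a barcode in both libraries, by depth, without Epcam members, with the study's filters together and without the deepest p16-Alb-LRTD member were chosen after seeing the data, as were all those of the tdTomato ratio. The number of p16-LRTD members, 64, became 36 with a mitochondrial limit of 5%, 40 and 34 with at least 1000 and 2000 genes, 39 and 25 with deep and shallow members alone and 6 with the study's filters. The number of p16-Alb-LRTD members, 53, became 22 and 15 with at least 1000 and 2000 genes, 28 with a hepatocyte threshold of 200, 16 with deep members alone and 5 with the study's filters. Members with a stellate level of 15 or over, 4 and 9, became 2 and 1 with at least 1000 genes, 1 and 1 with at least 2000 genes, 0 and 3 with a hepatocyte threshold of 200, 22 and 22 with a stellate threshold of 5, 0 and 2 with one of 30, 2 and 4 without shallow members with a barcode in both libraries, 1 and 1 with deep members alone and 0 and 0 with the study's filters. Hepatocyte lists with a median log2 ratio above 0, 4 of 12, became 7 with at most 7000 genes and 50000 UMIs, 2 without the near-identical members or with these counted as 1, 7 with shallow members alone (where not every list had a gene past the count filter), 2 with the study's filters, 9 scaled by secreted-gene lists and 1 with TMM factors. The zone 3 median, -0.63, became 0.18 with at most 7000 genes and 50000 UMIs, -0.34 with a hepatocyte threshold of 200, 0.075 with shallow members alone, -0.035 as a mean of per-barcode levels, -0.16 scaled by secreted-gene lists, -1.09 with TMM factors and 0.013 without the 5 deepest members of each library. The zone 1 median, -0.21, became 0.89 with a hepatocyte threshold of 200, 1.24 with a stellate threshold of 30 and -0.82 with shallow members alone. The log2 ratio of tdTomato, 4.73, became 5.75 with a stellate threshold of 5 and 3.82 without the 5 deepest members of each library, and stayed above 0 in each of the 19 alternatives that gave a value. Among single genes, also recomputed after seeing the data, those past 2-fold whose log2 ratio changed sign were Mup20 (-1.25), Anxa2 (0.34), Vta1 (-0.077) and Cyp2c70 (0.56) in shallow members, and Mup20 (-3.79) and Col1a1 (-1.55) without the barcode with most of their UMIs; genes nearer to 0, Hamp, Hp, Mt1, Mt2, Gstm1 and Krt18 among them, changed sign too. Beyond the changes of scaling, filter and members that define these alternatives, the cause was not tested. Depth limits the shallow members most: at a median of 979 and 1100 UMIs a gene at 10 per 10000 gives about 1 UMI.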

Other observations

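Genes of proliferation and of the fetal liver were found in part of the members under 15. Afp, the fetal counterpart of albumin, stood at 1.85 per 10000 UMIs in p16-LRTD, in 26 of 60 members, and at 0.156 in p16-Alb-LRTD, in 5 of 44 (log2 -3.57, -4.64 to -2.67). H19, an imprinted RNA of the fetal liver, was found in 1 p16-LRTD member alone, which gave a level of 0.277 over that library's members. Mki67, a marker of cycling cells, stood at 0.837 against 0.468 over all members under 15, with UMIs in 18 p16-LRTD members and 2 p16-Alb-LRTD members. The numbers of members with a UMI are not matched for depth, the median being 16575.5 UMIs in p16-LRTD and 1935.5 in p16-Alb-LRTD. Ccnd1, a cyclin that drives entry into the cell cycle, stood at 3.14 against 1.34 (-1.23). Krt8 and Krt18, the keratin pair that hepatocytes share with cholangiocytes, stood at 7.89 against 4.31 and 5.98 against 4.29. The log2 ratio of Krt18, -0.48, was -0.25 without the 7 near-identical members and 1.15 in shallow members alone.

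Over the whole series, 28 of the 95 barcodes found in both libraries paired at least 50000 UMIs in one library with fewer than 5000 in the other, the smaller holding 0.53% to 2.49% of the larger's UMIs. They included barcodes that were no members.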
